A study of Mus musculus with 4 samples.

Results

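MHC class II genes encode the molecules that show peptides to CD4+ T cells. The 4 genes described here were *Cd74*, *H2-Aa*, *H2-Ab1* and *H2-Eb1*, which were taken by symbol from the 32285 genes listed in a single-cell RNA sequencing (scRNA-seq) matrix of mouse salivary glands. All 4 symbols were found, and all 4 genes had UMIs. A UMI (unique molecular identifier) tags 1 captured RNA molecule. The matrix came from submandibular and sublingual glands of wild-type, untreated female C57BL/6N mice aged 6 to 8 weeks. Each sample label names 2 mice, without saying whether they are the same 2, and the study's methods name 3. Of the 4 samples listed, none could be matched to a cell, because the matrix has 1 barcode suffix, so all cells counted as 1 sample with glands and mice pooled. No test between mice or glands was therefore made, and every interval is a 95% interval for counting error only. The question for these genes was which cell classes carried them and at what level.

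*H2-Aa* and *H2-Ab1* encode the alpha and beta chains of I-A, and *H2-Eb1* encodes the beta chain of I-E. *Cd74* is the invariant chain, which lies outside the MHC locus, blocks the peptide groove of new class II molecules and guides them to endosomes; it also serves as a surface receptor for the cytokine MIF. Mice of the C57BL/6 background make no I-E alpha chain, so *H2-Eb1* is transcribed there without I-E on the surface. Transcription of the H2 genes depends on the coactivator CIITA, which also drives *Cd74* and is bound through factors on the X and Y boxes of the promoters. Dendritic cells and B cells carry class II all the time, and macrophages at levels that vary. Many epithelial and endothelial cells acquire it after interferon-gamma.

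In GENCODE M21 on GRCm38, the 3 H2 genes lie close together on chromosome 17. *H2-Ab1* (ENSMUSG00000073421) is on the plus strand at chr17:34257689-34269419, *H2-Aa* (ENSMUSG00000036594) on the minus strand at chr17:34282744-34287823, and *H2-Eb1* (ENSMUSG00000060586) on the plus strand at chr17:34305867-34316674. *Cd74* (ENSMUSG00000024610) lies on another chromosome and contains the microRNA gene *Mir5107*. *H2-Eb1* overlaps the antisense gene *Gm20513*, which had 6 UMIs in the matrix, and the strand setting of the gene counts is not given in the sources used here. Within the last 400 bases of their transcripts, none of the 4 genes shared a stretch of 90 bases with another gene.

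RefSeq promoter entries (GRCm38.p6) were matched for 2 of the 4 genes, *H2-Aa* and *H2-Eb1*, whose transcripts moved together across the clusters described below. The 250 bases before each start are printed because they hold letters like those of the X and Y boxes. Capitals mark the letters GCAAC, as in an X box, and ATTGG, the core of a Y box. *H2-Aa* is at chr17:34287824-34288073 on the minus strand and *H2-Eb1* at chr17:34305617-34305866 on the plus strand.
H2-Aa: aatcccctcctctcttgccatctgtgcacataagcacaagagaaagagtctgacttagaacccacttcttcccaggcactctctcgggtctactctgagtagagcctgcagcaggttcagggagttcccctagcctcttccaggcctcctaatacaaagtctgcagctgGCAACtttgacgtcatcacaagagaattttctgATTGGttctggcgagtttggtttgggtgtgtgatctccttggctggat
H2-Eb1: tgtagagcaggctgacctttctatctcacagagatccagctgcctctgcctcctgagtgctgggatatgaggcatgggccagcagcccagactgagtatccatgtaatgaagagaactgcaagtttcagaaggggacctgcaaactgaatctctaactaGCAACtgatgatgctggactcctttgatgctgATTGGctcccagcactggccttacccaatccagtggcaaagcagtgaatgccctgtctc
In *H2-Aa*, GCAAC began at -81 and ATTGG at -48 from the start, with 28 bases between them. In *H2-Eb1* they began at -91 and -59, with 27 bases between them. Just behind GCAAC, *H2-Aa* carried TGACGTCA, the palindrome that CREB binds, from -74, and *H2-Eb1* carried TGATG from -86. TGATG on the other strand overlapped the palindrome of *H2-Aa* from -68. *H2-Eb1* had further matches, not in capitals, to TGATG from -83 and -67 and to ATTGG on the other strand from -35. Searched on both strands, ATTGG was present in 33.8%, GCAAC in 29.9%, TGATG in 34.5% and TGACGTCA in 1.55% of 32851 promoter stretches of the same length. GCAAC followed by ATTGG on the strand of the gene, with 10 to 30 bases between, was present in 0.454% of them. These are matches of letters and not measured binding sites.

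The 15707 cells held a median of 2608 UMIs each, from 1374 to 141509, and 689 genes. The 10 most abundant transcripts took 75.5% of the 125100595 UMIs. Cells were clustered without the class II genes, and 17 of 24 clusters were named from other marker genes as myeloid-like (1063 cells), lymphoid-like (1235), endothelial-like (291), epithelial-like (6227) or mesenchymal-like (557). The other 6334 cells, 40.3% of all, stayed unnamed, in clusters with too few markers, markers of several classes or a median of fewer than 500 genes per cell. Scrublet called 0 cells doublets, too few for the caller to have worked, so no doublets were removed.

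All 4 class II genes were at their highest in the myeloid-like cells, which include macrophages and make up 6.77% of the cells. These cells held 83.2% of the 170305 class II UMIs, against 3.87% in epithelial-like, 0.527% in mesenchymal-like, 0.340% in lymphoid-like and 0.273% in endothelial-like cells. The remaining 11.8% lay in unnamed clusters, and 12021 of those UMIs came from cluster 12, a cluster with myeloid markers that is described below. Of the class II UMIs in all cells, 86462 were *Cd74*, 29031 *H2-Eb1*, 28592 *H2-Ab1* and 26220 *H2-Aa*.

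The level of a gene is given as its UMIs per 10000 UMIs of the class. UMIs were counted at the 3′ end of transcripts and not divided by length. *Cd74* stood at 272 (270 to 274) in myeloid-like, 2.90 (2.64 to 3.17) in mesenchymal-like, 2.43 (2.11 to 2.77) in endothelial-like, 1.26 (1.13 to 1.40) in lymphoid-like and 0.327 (0.315 to 0.339) in epithelial-like cells. Its myeloid level was thus 112 times (98.2 to 129) the endothelial level, the next of the 4 main classes, a log2 ratio of 6.81 (6.62 to 7.01). In myeloid-like cells *Cd74* was the gene with rank 2 by UMIs among 13837 genes with a UMI.

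*H2-Aa*, the I-A alpha chain, had a level of 80.8 (79.7 to 81.9) in myeloid-like, 0.921 (0.733 to 1.14) in endothelial-like, 0.919 (0.777 to 1.08) in mesenchymal-like, 0.276 (0.216 to 0.347) in lymphoid-like and 0.121 (0.114 to 0.128) in epithelial-like cells. Its partner chain *H2-Ab1* had a level of 88.3 (87.2 to 89.4) in myeloid-like, 0.876 (0.693 to 1.09) in endothelial-like, 0.802 (0.670 to 0.952) in mesenchymal-like, 0.310 (0.246 to 0.385) in lymphoid-like and 0.140 (0.132 to 0.148) in epithelial-like cells. *H2-Eb1*, whose protein has no partner in this strain, had a level of 89.8 (88.6 to 90.9), 1.00 (0.803 to 1.23), 0.919 (0.777 to 1.08), 0.371 (0.301 to 0.453) and 0.138 (0.130 to 0.145) in the same order of classes. The 3 H2 genes held ranks 11 (*H2-Eb1*), 12 (*H2-Ab1*) and 13 (*H2-Aa*) in myeloid-like cells. The log2 ratios of myeloid-like to endothelial-like cells were 6.45 (6.14 to 6.79) for *H2-Aa*, 6.65 (6.33 to 6.99) for *H2-Ab1* and 6.49 (6.19 to 6.81) for *H2-Eb1*, so the intervals of the H2 genes overlapped. The plot of levels by class shows the same gap for each gene.

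**Figure D1:**
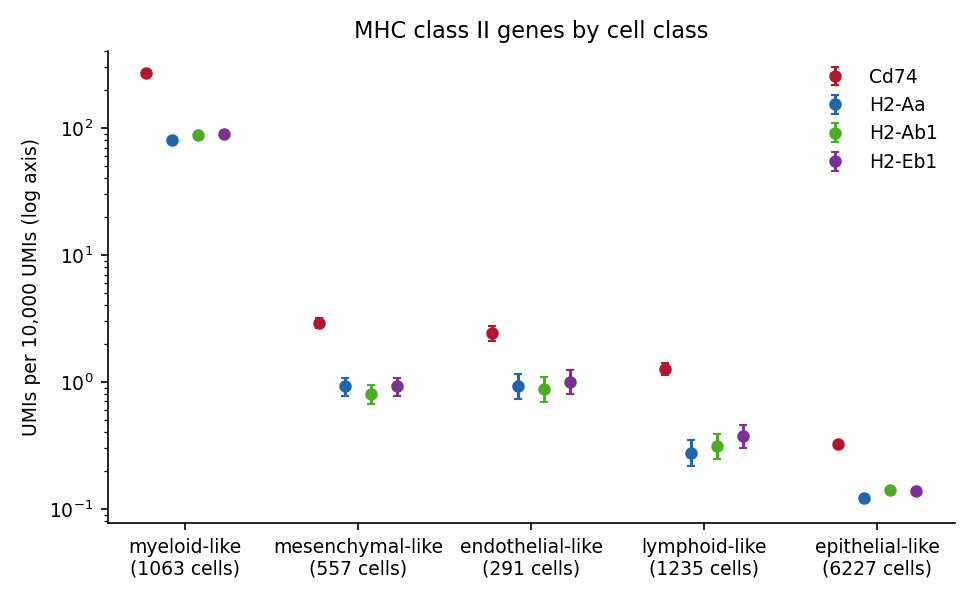
Level of each class II gene (UMIs per 10,000 UMIs, log axis) in the 5 named classes, with the number of cells under each class. Points are class totals and bars are exact Poisson 95% intervals; the 4 genes lie between 80.8 and 272 in myeloid-like cells and at or below 2.90 elsewhere.

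Summed over the 4 genes, the class II level was 531 (528 to 534) in myeloid-like, 5.54 (5.18 to 5.91) in mesenchymal-like, 5.22 (4.76 to 5.72) in endothelial-like, 2.22 (2.04 to 2.40) in lymphoid-like and 0.725 (0.707 to 0.742) in epithelial-like cells. Mesenchymal-like and endothelial-like cells could not be separated by this sum, at a ratio of 1.06 (0.947 to 1.19). Endothelial-like cells exceeded lymphoid-like cells 2.36-fold (2.08 to 2.67), and lymphoid-like exceeded epithelial-like cells 3.06-fold (2.80 to 3.33). Few cells carried the endothelial value, since 9 of the 291 endothelial-like cells held 82.2% of the class II UMIs of the class. The same held for the lymphoid-like class, where 10 of 1235 cells held 62.0%, and the highest cell 198 of 579 UMIs. Without the cells of at least 10 class II UMIs the levels were 2.27 (2.04 to 2.52) in mesenchymal-like, 1.01 (0.802 to 1.25) in endothelial-like and 0.858 (0.748 to 0.979) in lymphoid-like cells. The mesenchymal-like and endothelial-like intervals then lay apart. The order of lymphoid-like and epithelial-like cells turned round with the measure. Per cell, epithelial-like cells held 1.06 and lymphoid-like cells 0.469 class II UMIs, and without the 10 most abundant transcripts in the total the levels were 3.50 and 2.64. The share of cells with a class II UMI was 36.3% in epithelial-like and 14.3% in lymphoid-like cells, at median depths of 5243 and 1867 UMIs, and 4.45% (3.95 to 4.99) and 4.78% (3.66 to 6.12) once every cell was thinned to 500 UMIs. After thinning, 99.2% of myeloid-like, 12.7% of mesenchymal-like and 8.25% of endothelial-like cells kept a class II UMI.

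The macrophage complement genes *C1qa*, *C1qb* and *C1qc* moved with class II outside the myeloid class. Their summed level was 119 in myeloid-like, 1.29 in endothelial-like, 0.980 in mesenchymal-like, 0.264 in lymphoid-like and 0.141 in epithelial-like cells. Class II UMIs per C1q UMI numbered 4.04 (3.29 to 5.003) in endothelial-like, 5.13 (4.83 to 5.45) in epithelial-like, 5.65 (4.77 to 6.73) in mesenchymal-like and 8.39 (6.53 to 10.9) in lymphoid-like cells, against 4.47 (4.42 to 4.53) in myeloid-like cells. Among lymphoid-like clusters the value was 5.63 (4.06 to 7.98) in cluster 4, which holds most of these cells, and 9.60 (6.35 to 15.1) in cluster 18. Cluster 19 had 97 class II UMIs with 1 C1q UMI. Free RNA was estimated at 520 UMIs per droplet. It would bring 0.707 class II UMIs if it held class II at the level of all cells together, 13.6 per 10000. The class II level of free RNA itself was not measured. The figure of 0.707 lies above the 0.469 class II UMIs per lymphoid-like cell. It lies below the 1.06 per epithelial-like, 1.60 per endothelial-like and 1.61 per mesenchymal-like cell. The part of free RNA and of doublets in these low levels was not tested.

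Cell by cell, the myeloid-like class stood apart. Its cells held from 0 to 437 class II UMIs, with a median of 130 and a 5th percentile of 37. The median was 0 in the other 4 named classes, although single cells there reached 198 in the lymphoid-like, 191 in the mesenchymal-like, 160 in the epithelial-like and 112 in the endothelial-like class. At least 10 class II UMIs were present in 1049 of 1063 myeloid-like cells, or 98.7% (97.8 to 99.3). The share was 3.09% (1.42 to 5.79) of endothelial-like, 1.26% (0.507 to 2.57) of mesenchymal-like, 0.947% (0.722 to 1.22) of epithelial-like and 0.810% (0.389 to 1.48) of lymphoid-like cells. The distributions overlapped only through these few cells and through 14 myeloid-like cells below 10.

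**Figure D2:**
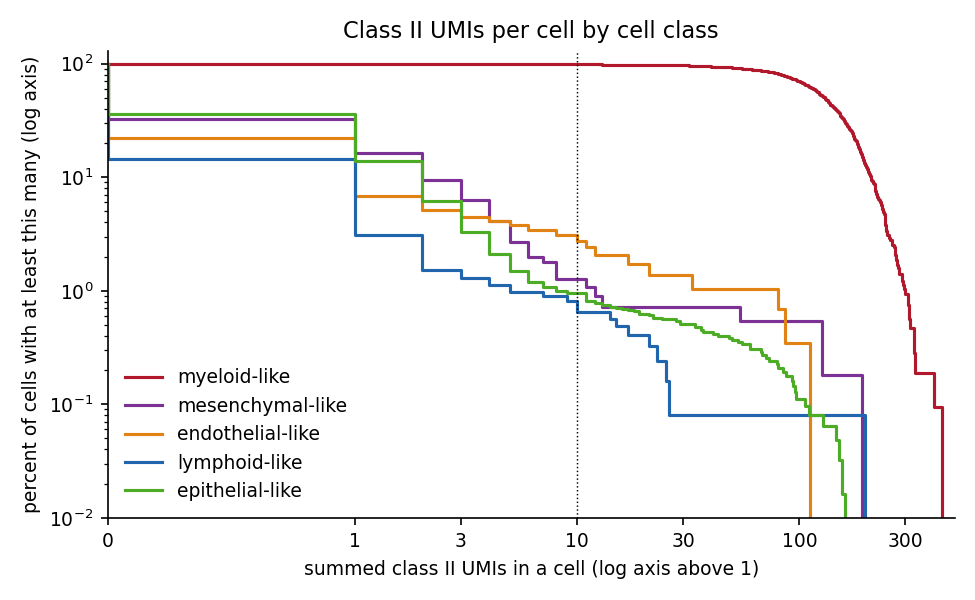
Percent of cells (log axis) that held at least a given number of class II UMIs, the sum of the 4 genes (log axis above 1), by class. The dotted line marks 10 UMIs, which 98.7% of myeloid-like cells reached and no more than 3.09% of the cells of any other named class.

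The few class II-rich cells outside the myeloid class mostly carried myeloid markers as well. Of 59 such epithelial-like cells, 46 (78.0%) had a C1q UMI, against 10.7% of the remaining epithelial-like cells. They were also deeper, with a median of 7604 UMIs against 5197, and a share of cells with a UMI rises with depth. The list of 19 myeloid markers summed to 18.4 UMIs per cell in them and 0.488 in the rest. Among endothelial-like cells 8 of 9 had a C1q UMI, against 4.26% of the rest, at median depths of 6913 and 2456 UMIs. Among mesenchymal-like cells 6 of 7 did, against 11.1%, at 3010 and 2088 UMIs. Among lymphoid-like cells 4 of 10 did, against 3.51%, and 3 of the other 6 were IgA-rich cells described below. In that class the marker list separated little, at 13.9 against 12.2 UMIs per cell. Of its genes, *Tyrobp* and *Fcer1g* are also known from NK cells. Without those 2 genes, a choice made after their values were seen, it was 3.70 against 0.455. Leaving out the class II-rich cells took the summed level to 2.27 (2.04 to 2.52) in mesenchymal-like and 0.401 (0.388 to 0.414) in epithelial-like cells.

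Among epithelial-like clusters, cluster 15, with the basal keratins *Krt5* and *Krt14* and the contractile gene *Acta2*, had the highest summed class II level at 8.00 (7.56 to 8.47). It held 12 class II-rich cells among 238 (5.04%), of which 9 had a C1q UMI, and its level was 1.27 (1.09 to 1.47) without them. Per 10000 UMIs the lowest was the Mucl2-rich serous acinar-like cluster 2 at 0.315 (0.301 to 0.329), whose cells had a median of 25824 UMIs. Per cell it held 0.899 class II UMIs, above clusters 16 (0.306), 3 (0.501) and 6 (0.816). Its share of cells with a class II UMI was 52.2% (50.1 to 54.3) as found and 2.01% (1.47 to 2.69) after thinning to 500 UMIs. Duct-like clusters 3, 6, 10 and 11 lay between 1.81 and 2.68.

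Within the myeloid-like class, all 3 clusters were rich in class II. Cluster 5, with 887 cells, carried 9 of 10 macrophage markers, among them *C1qa*, *Adgre1* and *Csf1r*, and had levels of 296 (294 to 299) for *Cd74*, 84.0 (82.7 to 85.2) for *H2-Aa*, 92.0 (90.7 to 93.3) for *H2-Ab1* and 94.6 (93.2 to 95.9) for *H2-Eb1*. Cluster 23, with 37 cells, carried the same 9 markers together with the proliferation genes *Top2a* and *Birc5*, and its levels were 189 (182 to 196), 55.0 (51.3 to 58.9), 55.5 (51.7 to 59.4) and 55.2 (51.5 to 59.1) in that order. Per cell it held 141 class II UMIs against 132 in cluster 5, at median depths of 3740 and 2129 UMIs.

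Cluster 17, with 139 cells, passed the rule for 0 of 10 macrophage, 2 of 11 dendritic cell and 1 of 6 monocyte markers. Those markers, *Cd209a*, *Batf3* and *Ccr2*, were too few for a name beyond myeloid-like. The leading genes of the cluster included *Retnla*, *Napsa*, *Ccr7*, *Mgl2* and *Cst3*, although *Retnla* was found in 7.19% and *Ccr7* in 19.4% of its cells. The levels there were 191 (187 to 195) for *Cd74*, 74.8 (72.3 to 77.4) for *H2-Aa*, 82.1 (79.5 to 84.8) for *H2-Ab1* and 79.2 (76.6 to 81.8) for *H2-Eb1*. These lay below cluster 5, but per cell the order of the sum turned round, with 139 class II UMIs against 132. *Cd74* had 62 UMIs per cell against 69.03, *H2-Aa* 24.4 against 19.6, *H2-Ab1* 26.7 against 21.4 and *H2-Eb1* 25.8 against 22.04. The cells of cluster 17 were also deeper, at a median of 2923 UMIs against 2129 in cluster 5. With every cell thinned to 1000 UMIs, cluster 17 had the lower median, at 43 class II UMIs against 59. It held 59.9 (53.7 to 67.1) class II UMIs per C1q UMI, against 3.99 (3.94 to 4.04) in cluster 5 and 2.61 (2.48 to 2.75) in cluster 23. In cluster 17 a C1q UMI was present in 21.6% (15.1 to 29.4) of cells, at a summed C1q level of 7.12. At least 10 class II UMIs were present in 133 of its 139 cells (95.7%). Class II was thus high in myeloid-like cells with and without a C1q UMI.

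Cluster 12, with 427 cells, had 8 myeloid markers but a median of 448 genes per cell and stayed unnamed. Its summed class II level was 50.2 (49.3 to 51.1), and 258 of its cells (60.4%) had at least 10 class II UMIs. Its 3.72 (3.57 to 3.86) class II UMIs per C1q UMI lay just below the value of cluster 5. Joining the unnamed clusters to the class with most markers brought cluster 12 into the myeloid class, whose level was then 304 and whose share of class II-rich cells was 87.7%. The plot of levels by cluster shows the step from these 4 clusters to all others.

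**Figure D3:**
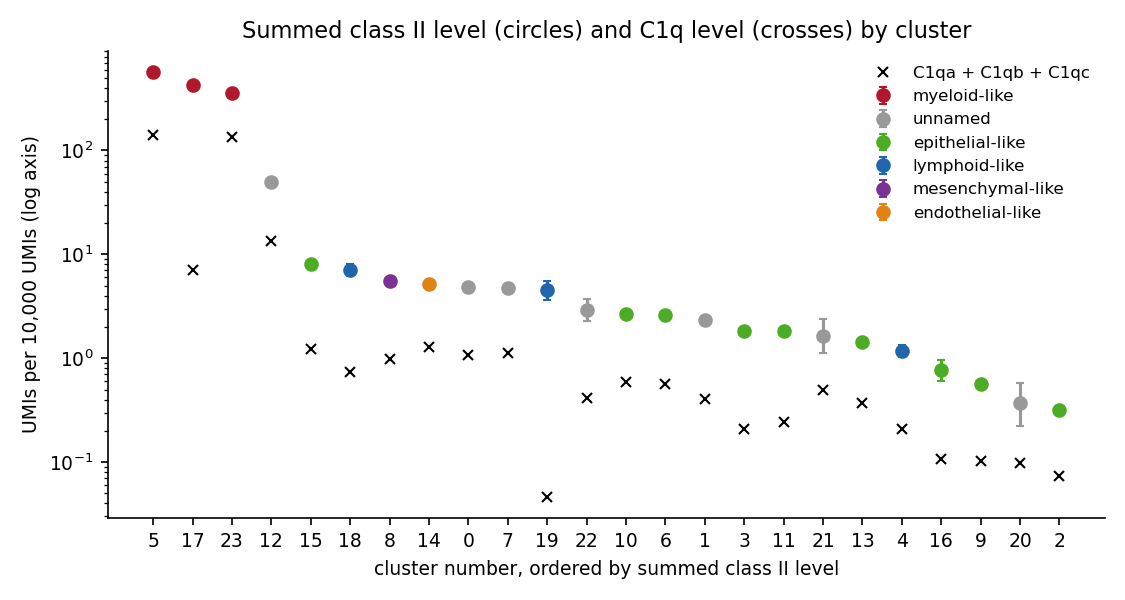
Summed level of the 4 class II genes (circles, coloured by class, with exact Poisson 95% intervals) and of C1qa, C1qb and C1qc (crosses) in UMIs per 10,000 UMIs (log axis) for the 24 clusters. Clusters 5, 17 and 23 lie between 355 and 567, cluster 12 at 50.2 and all others at or below 8.00; the C1q crosses lie farther below class II in clusters 17 and 19 than in the others.

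Of the 1063 myeloid-like cells, 14 had fewer than 10 class II UMIs. The 8 in cluster 5 all had C1q, from 17 to 58 UMIs a cell. The 6 in cluster 17 had 0 C1q UMIs, and 1 of them had 0 class II UMIs with 92 UMIs of the lysozyme gene *Lyz2* and 15 of *Il1b*. Thinned to 1000 UMIs, class II UMIs per cell ran from a 5th percentile of 22 through a median of 59 to a 95th percentile of 95 in cluster 5, and from 4 through 43 to 78.1 in cluster 17. Across the thinned cells, Pearson's r between pairs of the 4 genes was 0.515 to 0.582 in cluster 5 and 0.603 to 0.712 in cluster 17. The summed class II count had an r of 0.172 with the C1q count in cluster 5 and 0.203 in cluster 17. Cells of 1 matrix share their libraries, so these are descriptions only.

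The mix of the 4 transcripts differed among cell groups. *Cd74* made up 51.3% (51.0 to 51.5) of class II UMIs in the myeloid-like class, 52.3% (52.0 to 52.5) in cluster 5, 53.3% (51.9 to 54.6) in cluster 23 and 44.7% (44.0 to 45.4) in cluster 17. In that last cluster the H2 genes took more of the sum, at 17.5% for *H2-Aa*, 19.2% for *H2-Ab1* and 18.6% for *H2-Eb1*, against 14.8%, 16.2% and 16.7% in cluster 5. Outside the myeloid class, *Cd74* made up 45.1% (43.8 to 46.3) in epithelial-like, 46.5% (41.8 to 51.1) in endothelial-like, 52.3% (49.0 to 55.6) in mesenchymal-like and 56.8% (52.7 to 60.9) in lymphoid-like cells. In cluster 4, the NK-marked cluster that holds most lymphoid-like cells, it was 52.5% (46.0 to 58.9). It was 49.2% (42.7 to 55.7) in cluster 18 and 86.6% (78.2 to 92.7) in cluster 19. The lymphoid-like share includes the IgA-rich cells of cluster 19 described below. They had 17, 23 and 26 *Cd74* UMIs and at most 2 H2 UMIs each, and they also count in the lymphoid-like *Cd74* level of 1.26. The lowest share among clusters of more than 500 class II UMIs was 39.9% (36.2 to 43.6) in cluster 9 and 40.4% (38.2 to 42.6) in cluster 2, both serous acinar-like and deeply sequenced.

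*Cd74* without the H2 genes was seen in a handful of IgA-rich cells. Plasma cells switch off CIITA, and with it the H2 genes of class II, as they mature. Of 5 cells with at least 500 UMIs of the IgA heavy chain gene *Igha*, where no other cell had more than 3, 4 lay outside the myeloid class. The 3 in cluster 19 had 17, 23 and 26 *Cd74* UMIs, and the 1 in cluster 12 had 26. *H2-Aa* and *H2-Eb1* had 0 UMIs in these 4 cells, and *H2-Ab1* had 2 UMIs in 1 of them. Their *Cd74* level was 24.0 (19.3 to 29.4) per 10000, whereas 0 UMIs allowed *H2-Aa* and *H2-Eb1* a level of up to 0.782 each, and *Cd74* made up 97.9% (92.5 to 99.7) of their class II UMIs. The fifth cell, in the macrophage-marked cluster 5, had 91 *Cd74*, 22 *H2-Aa*, 16 *H2-Ab1* and 29 *H2-Eb1* UMIs together with 39 C1q UMIs. The 93 other cells of the T cell-marked cluster 19 had 18 *Cd74* UMIs in all, 15 of them in 1 cell, and 11 H2 UMIs. These cells were singled out after their values were seen. B cells, which carry class II, were scarce, since 21 cells had a UMI of at least 2 of 7 B-cell genes and 2 cells of at least 3.

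**Figure D4:**
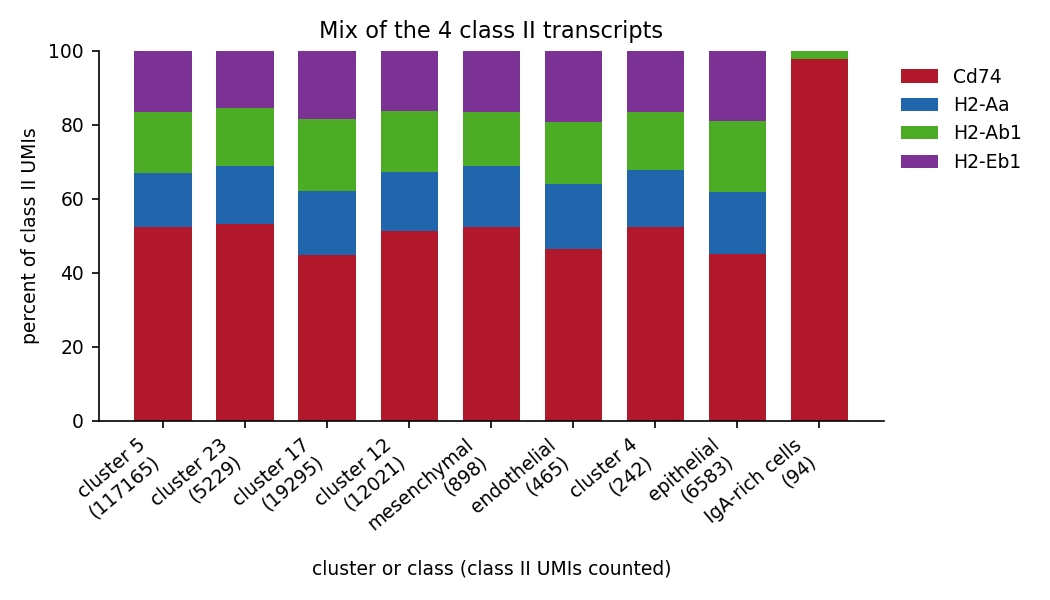
Percent of class II UMIs from each of the 4 genes in selected clusters and classes, with the number of class II UMIs counted in brackets. Cd74 takes 44.7% to 53.3% in the groups other than the IgA-rich cells (4 cells outside the myeloid class), where it takes 97.9% of 94 UMIs.

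The other genes of the class II pathway were compared by the same measure. Of 14505 genes with at least 10 UMIs in the 4 main classes, 546 or 3.76% had a myeloid level at least 4 times the highest of the lymphoid-like, endothelial-like and epithelial-like levels. All 4 class II genes did, with a median ratio of 95.3, against 0.467 over all genes tested.

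Of the accessory list, the H2-DM and H2-O chains act on peptide loading, with H2-DM exchanging peptides and H2-O restraining H2-DM. The list also holds *H2-Eb2*, which is not one of these chains. Of the 6 genes on the list 5 passed the 4-fold limit, with a median ratio of 22.0. *H2-DMb1* had a level of 6.43 (6.13 to 6.74) and *H2-DMa* of 5.43 (5.15 to 5.72) in myeloid-like cells, and neither exceeded 0.134 in the other 3 classes. The exception was *H2-Oa*, at 0.371 (0.302 to 0.452) in myeloid-like and 0.0995 (0.0650 to 0.146) in lymphoid-like cells.

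Among 8 transcription factors of the list, 1 passed. This was *Ciita*, the class II coactivator, with a myeloid level of 0.420 (0.346 to 0.505), 0 UMIs in lymphoid-like cells and a level of 0.0225 in endothelial-like cells. The RFX genes, whose complex binds the X box, and the NF-Y and CREB genes, which serve many promoters, did not pass, and the median ratio of the list was 0.621.

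Of 7 processing and turnover genes 4 passed, with a median ratio of 9.03. *Ctss*, the protease that trims the invariant chain, had a level of 27.9 (27.2 to 28.5), *Lgmn*, an endosomal protease, 4.49 (4.24 to 4.75), *Ifi30*, a thiol reductase, 3.28 (3.07 to 3.51) and *March1*, the ubiquitin ligase that removes class II from the surface, 0.161 (0.117 to 0.217). *Ctsl*, which trims the invariant chain in thymic epithelium, had a level of 6.18 (5.80 to 6.57) in mesenchymal-like, 2.01 in endothelial-like and 1.03 in myeloid-like cells. The mesenchymal-like class was not part of the 4-fold limit, and with it *Ifi30* would not pass, at 0.919 (0.777 to 1.08) in that class. Of 5 costimulation genes *Cd80*, *Cd86*, *Cd40* and *Icosl* passed and *Icam1* did not, with a median ratio of 14.3. *Cd86*, the ligand of CD28, had a level of 1.57 (1.42 to 1.72).

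Of 16 class I genes 0 passed, a share near the 3.76% of all genes, and 4 of them were highest in myeloid-like, 7 in lymphoid-like and 5 in endothelial-like cells. *H2-K1*, a class I heavy chain, had a level of 22.8 in lymphoid-like and 12.2 in myeloid-like cells. Of the *Cd74* ligand and partner genes 0 of 3 tested passed, and *Mif* itself had a level of 3.21 in lymphoid-like and 1.24 in myeloid-like cells. Of 8 interferon-gamma genes 0 passed, and *Ifng* was at 0.704 (0.606 to 0.814) in lymphoid-like cells, with 1 UMI in myeloid-like cells.

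The same lists were compared between clusters 17 and 5. Of 8519 genes tested, 16.9% were at least 2-fold higher and 14.2% at least 2-fold lower in cluster 17. None of the 4 class II genes passed either limit, which for 4 genes is near those shares, with a median ratio of cluster 17 to cluster 5 of 0.864. Of the 6 genes on the accessory list 4 were higher, *H2-DMb2* at 1.44 against 0.0725, *H2-Oa* at 1.04 against 0.242, *H2-Ob* at 0.663 against 0.102 and *H2-Eb2* at 0.287 against 0.00484 (13 UMIs against 1), and none was lower. Among processing genes *Ifi30* was higher in cluster 17, at 10.5 (9.56 to 11.5) against 1.76 (1.58 to 1.95). *Ctss* was lower, at 7.21 (6.45 to 8.03) against 32.6 (31.8 to 33.3), as were *Lgmn*, at 1.11 against 5.27, and *Ctsl*, at 0.376 against 1.21. *Cd80* was at 0.265 against 0.0193, and *Cd86* at 0.774 against 1.75.

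**Figure D5:**
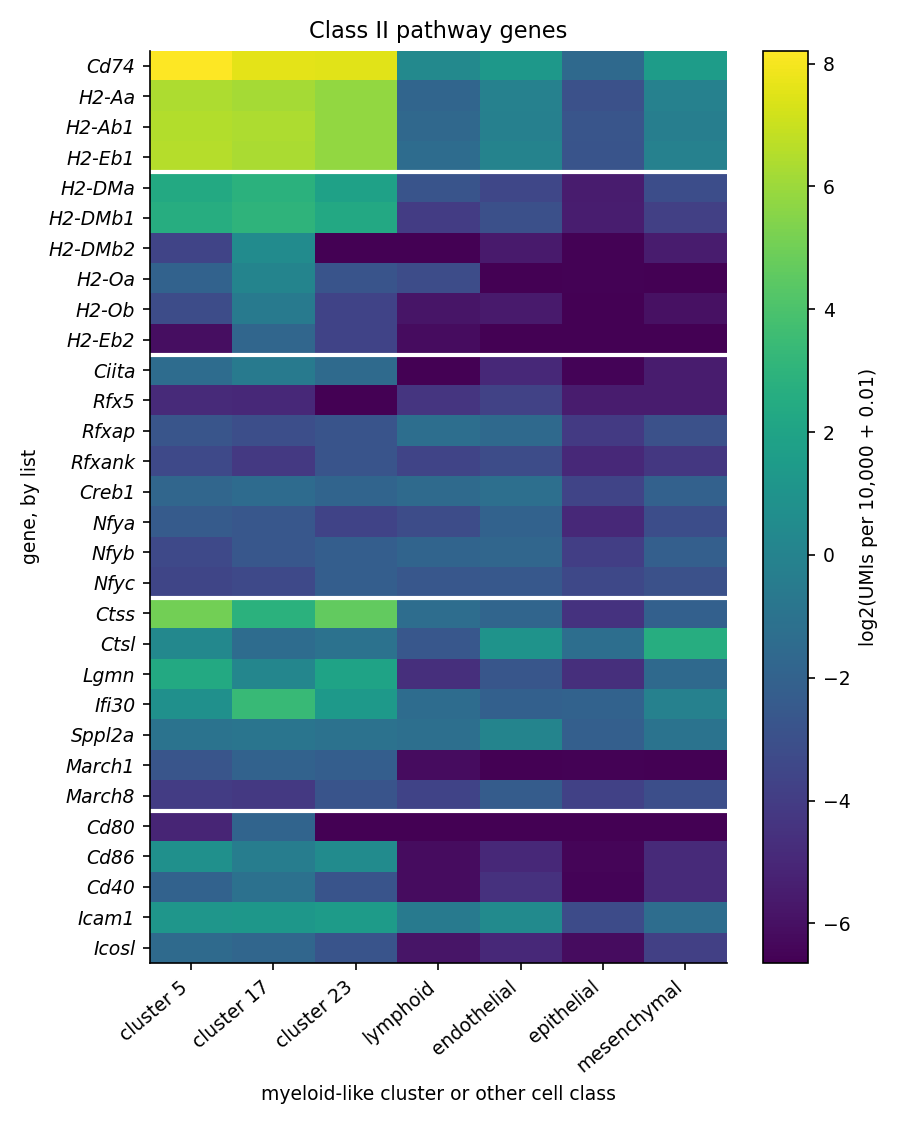
Level of the class II genes and of 4 lists of pathway genes, as log2(UMIs per 10,000 + 0.01), in the 3 myeloid-like clusters and the 4 other named classes. White lines separate the lists, from the top the class II genes, accessory chains, transcription factors, processing and turnover genes and costimulation genes; the class II genes are bright in all 3 myeloid-like clusters, whereas Ctss is brightest in cluster 5 and Ifi30 in cluster 17.

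Over the 24 clusters, Pearson's r of log2(level + 0.1) was 0.993 to 0.995 between pairs of the 3 H2 genes and 0.968 to 0.980 between *Cd74* and each of them. Of 9587 other genes, the pattern most like the summed class II level was that of *Cd83*, a protein that keeps class II on the surface, with an r of 0.979. It was followed by *Ctss* (0.955), *Spi1* (0.945), *H2-DMa* (0.943), *Mpeg1* (0.941), *Lyz2* (0.939), *Pld4* (0.939), *Il1b* (0.937), *Ly86* (0.937) and *Aif1* (0.936). *Cd83* had a level of 18.3 in myeloid-like cells, 20.4 in cluster 5 and 8.67 in cluster 17, and no more than 0.270 in the lymphoid-like, endothelial-like and epithelial-like classes. The clusters share 1 matrix and its free RNA, and a few myeloid-like clusters set much of each r.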

How the data were processed

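scRNA-seq of submandibular and sublingual glands was made with 10x Genomics 3′ libraries. The authors deposited 1 matrix of raw UMI counts, not normalized, for 4 samples of 1 group. The submitters' processing notes name Cell Ranger 6.0.1, Seurat 4.1.1 and mm10. The sources used here state neither the strand setting nor the annotation, and name no filter on cells, so all barcodes were kept. No cell could be tied to a sample.

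After LogNormalize at 10000, cells were clustered in Seurat 5.3.0 (R 4.3.3) by the Louvain method, with 20 principal components at a resolution of 0.5. The 22 class II and class I list genes among the 2000 variable genes were removed, which left 1978. A cluster was credited with a marker found in 25% or more of its cells and above the level of the other cells. A name needed 3 markers, at least 2 times as many as any other class had, and a median of at least 500 genes. Classes are called "-like" since the names were rebuilt here, and shares or levels can differ from the study's for that reason.

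Levels are summed UMIs per 10000 UMIs with exact Poisson intervals. Ratios carry exact conditional intervals and shares exact binomial (Clopper-Pearson) intervals, all at 95%. The upper limit for a count of 0 is 3 counts. Cells were thinned to 500 or 1000 UMIs, and 0 cells lay below. The free RNA estimate rests on acinar transcripts (*Mucl2*, *Pip*, *Scgb2b27*) found in lymphoid-like cells. Its class II part was taken at the class II level of all UMIs in the matrix. Python 3.11.15, numpy 2.4.6, scipy 1.17.1, pandas 2.3.3, matplotlib 3.10.9 and Scrublet in scanpy 1.11.5 were used. Interval methods were tested on data simulated with counting error only, which cannot show how they hold where a few cells carry most UMIs.

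Named were the 4 genes, listed pathway genes, class markers and the 10 genes most like the class II sum over clusters of at least 30 cells, among genes of at least 200 UMIs. H2-Ea was not analysed here. The genes, lists and limits were chosen with earlier results of these data known. Alternatives covered the clustering, the cell filter, the denominator, free RNA, doublet scores, naming and the UMI minimum.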

Additional observations from a re-analysis of the deposited data

How the results depend on the processing

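Of the 4 main classes, the myeloid-like class had the highest level of each class II gene under every alternative run. The order of lymphoid-like and epithelial-like cells was not kept. By the summed level lymphoid-like cells lay above, but below without the 10 most abundant transcripts and as mean UMIs per cell. With free RNA taken away the lymphoid-like level was 0. That alternative cannot decide the order, because its estimate of 0.707 class II UMIs per droplet exceeds the 0.469 found per lymphoid-like cell. Cell filtering moved no value beyond its interval. The log2 ratio of the summed level, myeloid-like to the next of the 4 main classes, was 6.67 and ranged from 5.86 to 9.04. A resolution of 0.3 gave summed levels of 553 (myeloid-like), 1.47 (lymphoid-like) and 0.700 (epithelial-like), and 0.8 gave 519 (myeloid-like) and 0.744 (epithelial-like). With 10 principal components the levels were 2.82 (lymphoid-like), 4.33 (endothelial-like) and 0.675 (epithelial-like) and the log2 ratio 6.94. With 30, no endothelial-like class was named, the levels were 512 (myeloid-like) and 1.43 (lymphoid-like), and the log2 ratio, to lymphoid-like cells, was 8.49. With the class II and class I genes kept among the variable genes the levels were 527, 1.46, 3.83 and 0.971 (myeloid-like, lymphoid-like, endothelial-like and epithelial-like), the log2 ratio 7.11 and the share of epithelial-like cells with at least 10 UMIs 1.33%. The cause of these shifts was not tested.

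Without the 10 most abundant transcripts in the total the levels, in the same order of classes, were 607, 2.64, 6.79 and 3.50, with a log2 ratio of 6.48. As mean UMIs per cell they were 133, 0.469, 1.60 and 1.06, with 6.38. With free RNA taken away they were 666, 0, 3.51 and 0.249, with 7.57. Without the 10% highest Scrublet scores the levels were 541 (myeloid-like), 4.37 (endothelial-like) and 0.645 (epithelial-like), with 6.95. Unnamed clusters joined to a class gave 304 (myeloid-like) and 1.28 (epithelial-like), with 5.86, and shares with at least 10 UMIs of 87.7% and 1.23%. That share in epithelial-like cells was 2.09% at a minimum of 5 UMIs and 0.626% at 20. Without the cells of at least 10 class II UMIs in the other classes, an alternative chosen after seeing the data, the levels were 0.858 (lymphoid-like), 1.01 (endothelial-like) and 0.401 (epithelial-like), with a log2 ratio of 9.04. For the single genes, 23 of the log2 ratios left the interval of the reported value and 25 did not.

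With 1 pooled matrix there was no replicate to leave out, and no spread between mice is known. No paired analysis was possible because no cell is tied to a sample. Levels outside the myeloid-like class rest on few UMIs per cell, and a gene without a UMI was not detectable at this depth, which does not show that it was absent.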

Other observations

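Outside the myeloid-like class and cluster 12, 175 of 14217 cells (1.23%) had at least 10 class II UMIs. Of the unnamed clusters, cluster 0 had 48 such cells among 2661 and cluster 1 had 27 among 2397. A C1q UMI was present in 42 of the 48, against 18.6% of the other cells of cluster 0, and in 16 of the 27, against 14.3% of the other cells of cluster 1. Cluster 16, with *Smgc* among its leading genes, had 0 such cells among 232, which allows a share of up to 1.58% by the exact binomial interval.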
